A study of Homo sapiens with 4 samples.

Results

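The MAGE-A genes (melanoma antigen family A) were followed here in A549 cells, a human lung adenocarcinoma line, on 4 two-colour cDNA arrays. The members were the probes that the platform annotation gives exactly 1 gene symbol beginning with MAGEA: 8 probes for 8 genes, of 26629 probes on the arrays, among which 20976 had 1 symbol and stood for 12483 genes. The family was chosen by its log ratios on these same arrays. Each array carried RNA of an A549 culture transfected with the microRNA gene let-7a-3 in 1 channel, and RNA of a parental A549 culture in the other. The numbered RNA sources changed dyes between arrays 1 and 3 and arrays 2 and 4, which is read here as the dye swap that the study describes. Both kinds of culture were labelled as untreated, and their RNA had been amplified before labelling. The control was the parental line, so transfection and selection cannot be told apart from let-7a-3 itself. The study counts the cultures as biological replicates, but it is not stated if those with let-7a-3 were grown from 1 line or more, which limits what the spread between arrays covers.

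The values are log ratios as deposited. No source used here gives their base, their numerator or whether arrays were turned to 1 orientation before deposit. No fold is therefore given, and it is not known which culture a positive value stands for: a turned sign would make each positive value below negative. The mean over the 4 arrays is called the shared component. The alternating component is the difference between the means of arrays 1 and 3 and of arrays 2 and 4, divided by 2. If the arrays had not been turned to 1 orientation, the shared component would hold dye effects and the alternating component the difference between let-7a-3 and parental cultures, so the shared values below cannot be assigned to the cultures. The table holds ratios without intensities, so neither the level of a MAGE-A transcript nor the markers of the cell line could be checked.

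MAGE-A genes lie on the X chromosome and belong to the cancer-testis antigens, which are made in male germ cells, are silent in most adult tissues and are switched on in many tumours. Methylation of CpG sites in their promoters keeps them silent in somatic cells. Peptides of MAGE-A proteins are shown on HLA class I molecules to cytotoxic T cells, and the proteins share a MAGE homology domain through which several of them bind RING ubiquitin ligases.

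The microRNA and the promoters of 4 members are printed to show the seed of the overexpressed microRNA and what the promoters of high and low members have in common. The mature let-7a strand encoded by let-7a-3 (RefSeq, GRCh38.p14, chr22:46112752-46112773, plus strand) has its seed, bases 2 to 8, in capitals:
hsa-let-7a-5p: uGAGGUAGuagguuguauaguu

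Promoter windows of 300 bases, from 250 before to 50 after an annotated start, came from RefSeq on GRCh38.p14, where 7 of the 8 members had 12 entries, and MAGEA1 is named only. Capitals mark GGATGTGA, which holds the GGAT core bound by Ets transcription factors.
MAGEA6 (chrX:152769640-152769939, minus strand): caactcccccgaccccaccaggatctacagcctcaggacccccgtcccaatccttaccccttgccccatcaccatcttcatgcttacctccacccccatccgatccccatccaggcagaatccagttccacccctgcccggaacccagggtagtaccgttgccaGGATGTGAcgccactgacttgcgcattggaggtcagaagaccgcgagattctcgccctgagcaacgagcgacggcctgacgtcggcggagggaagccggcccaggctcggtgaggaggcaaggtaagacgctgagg
MAGEA2B (chrX:152714378-152714677, plus strand): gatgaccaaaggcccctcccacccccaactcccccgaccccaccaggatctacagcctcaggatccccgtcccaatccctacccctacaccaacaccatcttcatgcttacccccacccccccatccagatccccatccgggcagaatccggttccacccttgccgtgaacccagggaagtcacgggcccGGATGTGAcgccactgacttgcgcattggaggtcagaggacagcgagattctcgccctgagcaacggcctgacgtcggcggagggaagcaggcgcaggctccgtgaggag
MAGEA12 (chrX:152733612-152733911, plus strand, the second of 2 annotated starts): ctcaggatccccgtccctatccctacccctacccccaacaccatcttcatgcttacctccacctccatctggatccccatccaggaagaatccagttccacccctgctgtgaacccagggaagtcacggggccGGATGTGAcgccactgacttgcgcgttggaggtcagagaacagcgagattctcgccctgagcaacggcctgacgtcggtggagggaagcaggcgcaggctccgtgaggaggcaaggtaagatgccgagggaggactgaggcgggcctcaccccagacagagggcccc
MAGEA8 (chrX:149880933-149881232, plus strand): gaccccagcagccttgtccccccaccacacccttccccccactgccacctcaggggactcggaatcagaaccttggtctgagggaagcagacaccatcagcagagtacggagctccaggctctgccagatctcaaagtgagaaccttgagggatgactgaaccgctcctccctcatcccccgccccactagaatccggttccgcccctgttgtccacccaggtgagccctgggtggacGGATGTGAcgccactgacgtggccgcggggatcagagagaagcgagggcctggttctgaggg

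The 300 bases of MAGEA3 (chrX:152698544-152698843, plus strand) were identical to those printed for MAGEA6, at 300 of 300 positions. Best alignments between starts gave 88.4% identity of MAGEA2B to MAGEA6 (251 of 284 aligned positions) and 86.7% of MAGEA12 to MAGEA6 (234 of 270), against 67.0% of MAGEA4 (175 of 261), 58.4% of MAGEA8 (135 of 231) and 58.4% of MAGEA11 (139 of 238). GGATGTGA, searched on both strands, was present in 12 of 12 member windows and in 1.16% of the 35116 windows in the table. Its distance upstream of the start differed, from offset -12 in MAGEA8 to -86 in MAGEA6 and MAGEA3 and -117 in the printed MAGEA12 window. At the other MAGEA12 start the offset was -12. The 2 MAGEA12 windows overlap and hold the same copy of the motif, which is counted in both. The GC box core CCGCCC was found in 6 of 12 member windows, which belong to 3 of 7 genes (MAGEA4, MAGEA8 and MAGEA11), and in 45.0% of all windows. The palindrome TGACGTCA was found in 0 of 12 member windows and 1.85% of all. The motifs were chosen after the letters had been read, and a match is no evidence of binding. The member windows held between 9 and 21 CpG sites, against a median of 14 over all windows. Counts were 19 in MAGEA6 and MAGEA3, 17 in MAGEA2B, 9 and 15 in MAGEA12, and 10 to 15 in MAGEA4. MAGEA8 had 12 and MAGEA11 had 21.

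MAGEA6, whose product binds the ubiquitin ligase TRIM28, led the family. Its probe had log ratios of 1.58 and 1.70 on arrays 1 and 3, against 1.15 and 1.28 on arrays 2 and 4. All 4 values were far from 0, and the 2 orientations did not overlap. The mean was 1.43 ± 0.26 (SD, n = 4), rank 1 among positive means of the 26629 probes and rank 2 by size. The alternating component of the same probe was 0.21. The family was chosen with these values known, so no p-value is given for a member, and calls from the fit are only counted.

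MAGEA12 and MAGEA2B followed. MAGEA12, the gene between MAGEA2B and MAGEA6 in the order of measured genes on X, had 0.81 and 0.69 on arrays 1 and 3, against 0.67 and 0.44 on arrays 2 and 4, with a mean of 0.65 ± 0.15 (SD, n = 4). MAGEA2B, a copy of MAGEA2 whose product binds p53, had 0.90 and 0.69 on arrays 1 and 3, against 0.22 and 0.33 on arrays 2 and 4 (mean 0.53 ± 0.32). In both the 2 orientations did not overlap, narrowly in MAGEA12 and by a wide gap in MAGEA2B. The MAGEA2 and MAGEA2B windows share 300 of 300 bases at 1 start, and whether this probe tells the 2 genes apart was not tested.

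MAGEA4 and MAGEA3 had smaller positive values on every array. MAGEA4, whose product binds the oncoprotein gankyrin, had 0.52 and 0.32 on arrays 1 and 3, against 0.045 and 0.40 on arrays 2 and 4 (mean 0.32 ± 0.20, SD, n = 4). MAGEA3, the target of tumour vaccines and, like MAGEA6, a partner of TRIM28, had 0.40 and 0.28 on arrays 1 and 3, against 0.030 and 0.22 on arrays 2 and 4 (mean 0.23 ± 0.15). Array 2 held the lowest value of both probes, close to 0.

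The remaining 3 members lay near 0. MAGEA11, a coregulator of the androgen receptor, had 0.18 and 0.039 on arrays 1 and 3, against 0.045 and 0.018 on arrays 2 and 4 (mean 0.070 ± 0.072, SD, n = 4). MAGEA8 had 0.11 and -0.17 on arrays 1 and 3, against 0.032 and 0.12 on arrays 2 and 4 (mean 0.023 ± 0.13). MAGEA1, the founding member of the family, had -0.19 and 0.011 on arrays 1 and 3, against -0.12 and -0.016 on arrays 2 and 4 (mean -0.077 ± 0.092). MAGEA8 and MAGEA1 changed sign between arrays, and the spread of each of the 3 was as large as its mean or larger.

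**Figure D1:**
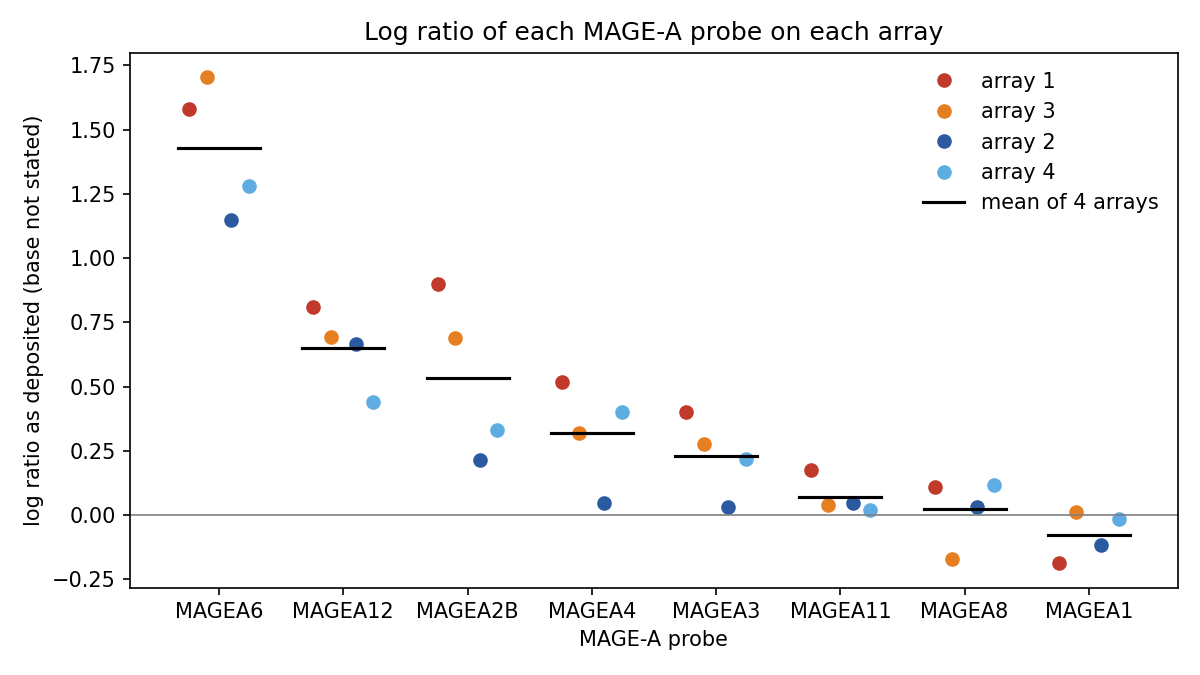
Log ratio as deposited of each MAGE-A probe on each array (points; arrays 1 and 3 red and orange, arrays 2 and 4 dark and light blue) with the mean of the 4 arrays as a bar. MAGEA6 stood at 1.15 to 1.70, MAGEA12 at 0.44 to 0.81, and MAGEA11, MAGEA8 and MAGEA1 lay around 0.

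In the order of means MAGEA6 (lowest value 1.15) lay above MAGEA12 (highest value 0.81) on every array. The neighbours further down overlapped: MAGEA12 with MAGEA2B, MAGEA2B with MAGEA4, MAGEA4 with MAGEA3, MAGEA3 with MAGEA11, and MAGEA11, MAGEA8 and MAGEA1 with each other. MAGEA6 exceeded MAGEA3, with which it shares the promoter window, by 1.18 and 1.43 on arrays 1 and 3 and by 1.12 and 1.06 on arrays 2 and 4 (mean 1.20 ± 0.16, SD, n = 4). Variance-stabilizing normalization compresses ratios of dim spots. Without intensities, whether this plays a part in the differences between members was not tested. The clones' inserts are not given here, and whether a probe also binds transcripts of related members was not tested.

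In the limma fit over all probes 4 of 8 members (MAGEA6, MAGEA12, MAGEA2B and MAGEA4) passed an adjusted p of 0.05 with a positive shared component, where 1.12% of all probes did, and 0 passed with a negative one, where 0.946% did. These values chose the family, and nothing is read from the count. Of 11 other settings of the fit the call of MAGEA4 was lost in 8, among them centring of each array, and leaving out array 1 or array 4. The median of the 8 shared means was 0.28, against 0.0081 over all probes, and 3 members reached 0.5, as did 0.315% of all probes. Positive values on all 4 arrays were found in 6 members and in 7.65% of all probes, and 0 members were negative on all 4, against 6.43%.

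The size of the log ratios differed between dye orientations. Both arrays 1 and 3 lay above both arrays 2 and 4 in 4 members (MAGEA6, MAGEA12, MAGEA2B and MAGEA3), as they did in 26.5% of all probes, and the reverse order was found in 0 members and 30.5% of all probes. The median of the members was 0.38 for the mean of arrays 1 and 3 and 0.17 for that of arrays 2 and 4, against 0.00 and 0.014 over all probes. MAGEA2B, with a difference of 0.52 between the orientation means, was the 1 member called in the alternating component, where 4.28% of all probes were called (2.81% positive and 1.48% negative). Its alternating component was 0.26. That call was lost after quantile normalization, in a fit without the shared term, without moderation and without array 2 or array 4. Its shared call was lost without the dye term and without moderation. Dye and orientation effects on these probes cannot be told apart from a condition effect in the alternating component. Across all probes (a description over probes that share an array) those of 1 orientation correlated with Pearson r = 0.43 (arrays 1 and 3) and 0.56 (arrays 2 and 4), and arrays of opposite orientation between -0.16 and 0.055.

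**Figure D2:**
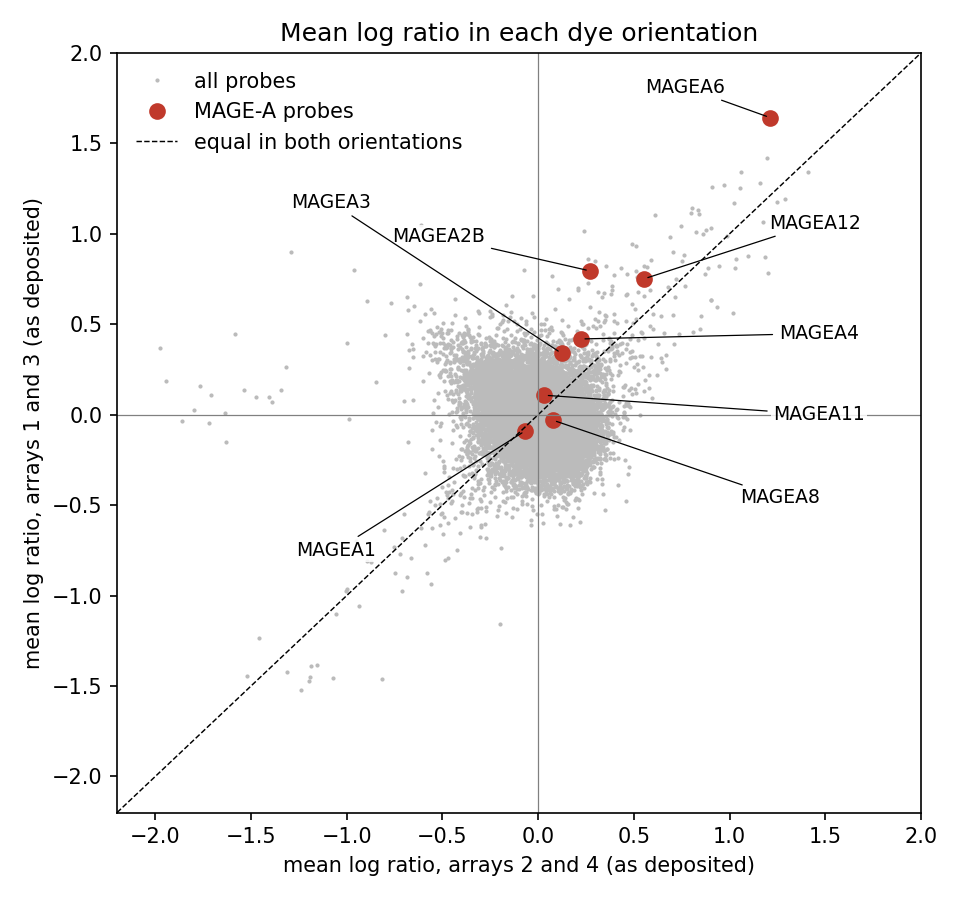
Mean log ratio of arrays 1 and 3 (vertical axis) against that of arrays 2 and 4 (horizontal axis), as deposited, for all 26629 probes (grey) and the 8 MAGE-A probes (red, named); the dashed line marks equal values. MAGEA6 lies at 1.64 on arrays 1 and 3 and 1.21 on arrays 2 and 4, and MAGEA2B at 0.79 and 0.27.

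Outside the membership, 3 probes carried several MAGE-A symbols and are not named. In 1 pair of clones annotated to the same 2 symbols, the shared means were 0.50 ± 0.28 and -0.14 ± 0.14 (SD, n = 4). The first of them followed the pattern of MAGEA2B, with 0.80 and 0.66 on arrays 1 and 3, against 0.19 and 0.34 on arrays 2 and 4, while the other was negative on all arrays. The remaining probe had 0.29 and 0.27 on arrays 1 and 3, against -0.013 and -0.024 on arrays 2 and 4.

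On the X chromosome the 4 members MAGEA3, MAGEA2B, MAGEA12 and MAGEA6 were next to each other in the order of measured genes, and their promoter windows spanned 71396 bases in GRCh38.p14. These 4 and MAGEA4 held the highest means, while MAGEA11 and MAGEA8 on the side of MAGEA4, and MAGEA1 on the side of MAGEA6, were near 0. Within 500 kb of a member lay 18 other measured genes with 23 probes. In limma 0 of the 23 passed in the shared component, where 2.07% of all probes did. In a list this short a count of 0 lies near that share, and nothing is read from it. Of the 23 probes 4 had an unadjusted p under 0.05, against 3337 of all 26629 probes, and the median was -0.012. GABRA3, a GABA receptor subunit between MAGEA4 and MAGEA3, was at 0.10 ± 0.17 (SD, n = 4). CETN2, a centrin next to MAGEA6 in the order of measured genes, was at 0.12 ± 0.013. NSDHL, an enzyme of cholesterol synthesis, was at -0.19 ± 0.20 (limma adjusted p = 0.210), and the uncharacterised LOC105377213 at -0.18 ± 0.051 (limma adjusted p = 0.133). Apart from IDS, where array 2 alone read -2.76, the shared means of the neighbours lay between -0.19 and 0.15. In the alternating component limma called 2 of the 23 probes, both positive, where 4.28% of all probes were called. They were ZNF275 (0.30) and 1 MAMLD1 clone (0.42), while the other MAMLD1 clones were at -0.080 and -0.11. A difference from that share was not tested.

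**Figure D3:**
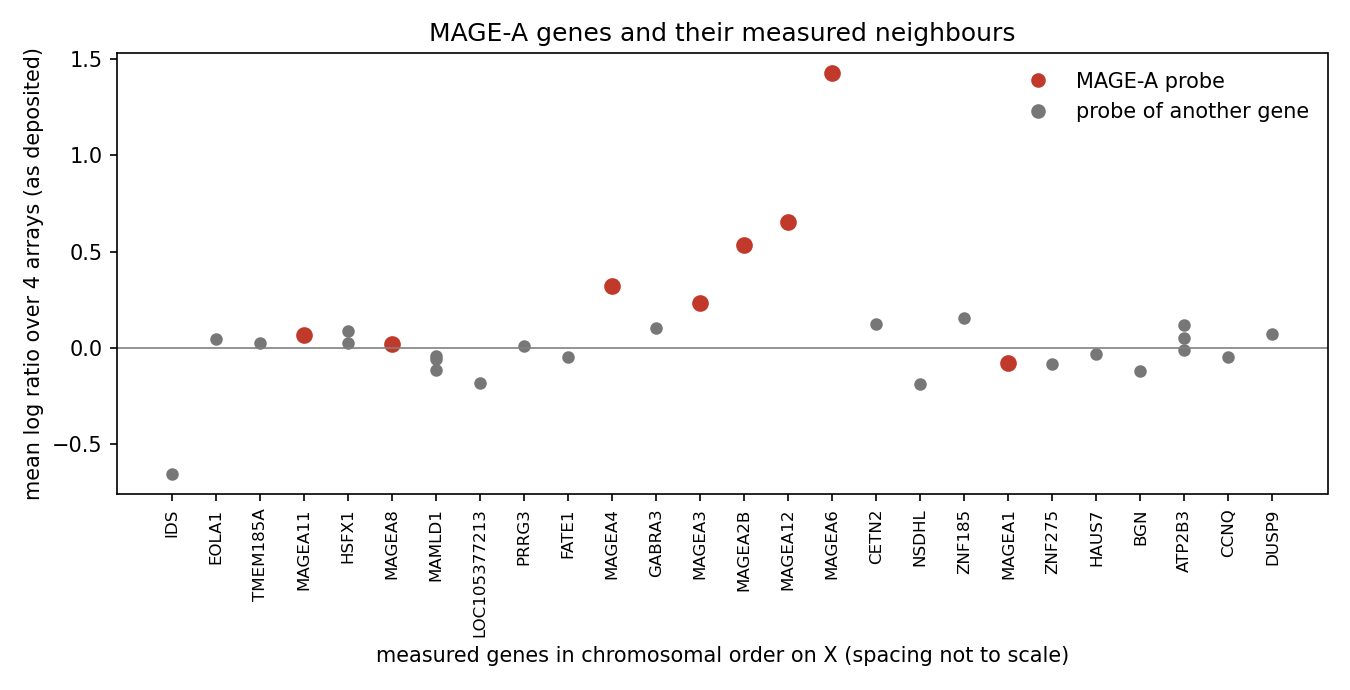
Mean log ratio over 4 arrays (vertical axis, as deposited) of every probe of the 26 measured genes in and around the MAGE-A region, in their order on X (horizontal axis, spacing not to scale). Red points are MAGE-A probes and grey points probes of other genes; MAGEA3, MAGEA2B, MAGEA12 and MAGEA6 are at 0.23, 0.53, 0.65 and 1.43, and the neighbours other than IDS between -0.19 and 0.15.

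Other MAGE families and other cancer-testis antigens gave no call in the shared component, where 2.07% of all probes were called and 3337 of 26629 had an unadjusted p under 0.05. In lists this short a count of 0 lies near that share, and nothing is read from it. Among type I MAGE genes outside MAGE-A, which are cancer-testis genes on X too, 0 of 6 probes passed in limma and 2 had an unadjusted p under 0.05, with a median of 0.037. MAGEB4, with 0.14 and 0.15 on arrays 1 and 3, against 0.19 and 0.21 on arrays 2 and 4, had the largest statistic (0.17 ± 0.031, SD, n = 4; limma adjusted p = 0.146), followed by MAGEB3 (0.13 ± 0.10; limma adjusted p = 0.333). MAGEC1 and MAGEC2 were at 0.0076 and -0.013. MAGEC1 was the 1 probe of the 6 called in the alternating component (-0.24), where 4.28% of all probes were called. Of the type II MAGE genes, which most tissues express, 0 of 8 probes passed in limma and 1 had an unadjusted p under 0.05, with a median of 0.087. MAGED2 (0.16 ± 0.20, limma adjusted p = 0.231) and 1 MAGED4B clone (0.095 ± 0.042, limma adjusted p = 0.492) had the largest statistics. The other MAGED4B clone was at -0.020. The difference between MAGE-A and these families was not tested.

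Of other X-linked cancer-testis antigens 15 genes with 19 probes were measured, and in limma 0 passed and 6 had an unadjusted p under 0.05, with a median of -0.0027. The probes lay between -0.16 and 0.16. TKTL1, a transketolase-like gene, was at -0.16 ± 0.35 (SD, n = 4; limma adjusted p = 0.184) and SSX1 at -0.15 ± 0.20 (limma adjusted p = 0.253), and CTAG2, SAGE1, the GAGE7 clones and XAGE3 lay within the same range. A further list of 41 cancer-testis genes, 39 of them autosomal and 2 (AKAP4 and PLAC1) on X, had 60 probes, of which 0 passed in limma and 6 had an unadjusted p under 0.05, with a median of 0.011. SPAG9, a scaffold of JNK signalling (-0.23 ± 0.15; limma adjusted p = 0.132), and ODF2, a protein of the sperm tail and centrosome (-0.16 ± 0.15; limma adjusted p = 0.187), had the largest statistics in 1 clone each, while the other SPAG9 clones were at -0.061, -0.030 and 0.026 and the other ODF2 clone at 0.026, and PRAME, a melanoma antigen, was at 0.069. In the alternating component, where 4.28% of all probes were called, MAEL and 1 SPAG1 clone were called positive and 1 TKTL1 clone negative. The other SPAG1 clone (limma adjusted p = 0.114) and the other TKTL1 clone (limma adjusted p = 0.355) were not called there.

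The list of DNA methylation and gene silencing had 40 probes for 26 genes, among them transcription factors such as ETS1, ETS2, SP1 and CTCF. In limma 1 passed with a positive and 1 with a negative shared component (2 of 40 probes, against 2.07% of all probes), and the median was 0.021. In the alternating component 3 were called positive and 1 negative, where 4.28% of all probes were called. They were EHMT1 (0.42 in 1 clone and -0.38 in another), 1 SP1 clone (0.29) and TET2 (0.30). The remaining EHMT1 clone (-0.039) and the other SP1 clone (0.092) were not called there. TDG, a DNA glycosylase that takes part in DNA demethylation, had 0.29 and 0.40 on arrays 1 and 3, against 0.28 and 0.51 on arrays 2 and 4 (0.37 ± 0.11, SD, n = 4; limma adjusted p = 0.0107). ETS2, a transcription factor of the Ets family, had -0.36 and -0.24 on arrays 1 and 3, against -0.45 and -0.40 on arrays 2 and 4 (-0.36 ± 0.088; limma adjusted p = 0.00563). The other TDG clone was at 0.024 and the other ETS2 clones were at 0.028 and 0.020. The list was chosen with earlier results of these data known, so the calls of TDG and ETS2 are only described. The DNA methyltransferases DNMT1 (0.055) and DNMT3A (-0.067), and CTCFL, a germ-line factor able to activate MAGE-A promoters (-0.050 and 0.044 in its 2 clones), did not pass. Of 31 probes for 15 genes whose products bind or serve MAGE-A proteins, 0 passed in limma in the shared component. An unadjusted p under 0.05 was found in 5, and 1 (NCOA1, 0.23) was called in the alternating component. The NCOA2 clones with the largest statistics were at 0.18 and -0.17 (limma adjusted p = 0.145 and 0.194), TRIM28 was at -0.0019 and HUWE1, the ligase paired with MAGEA11, between -0.069 and 0.13 in its clones.

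**Figure D4:**
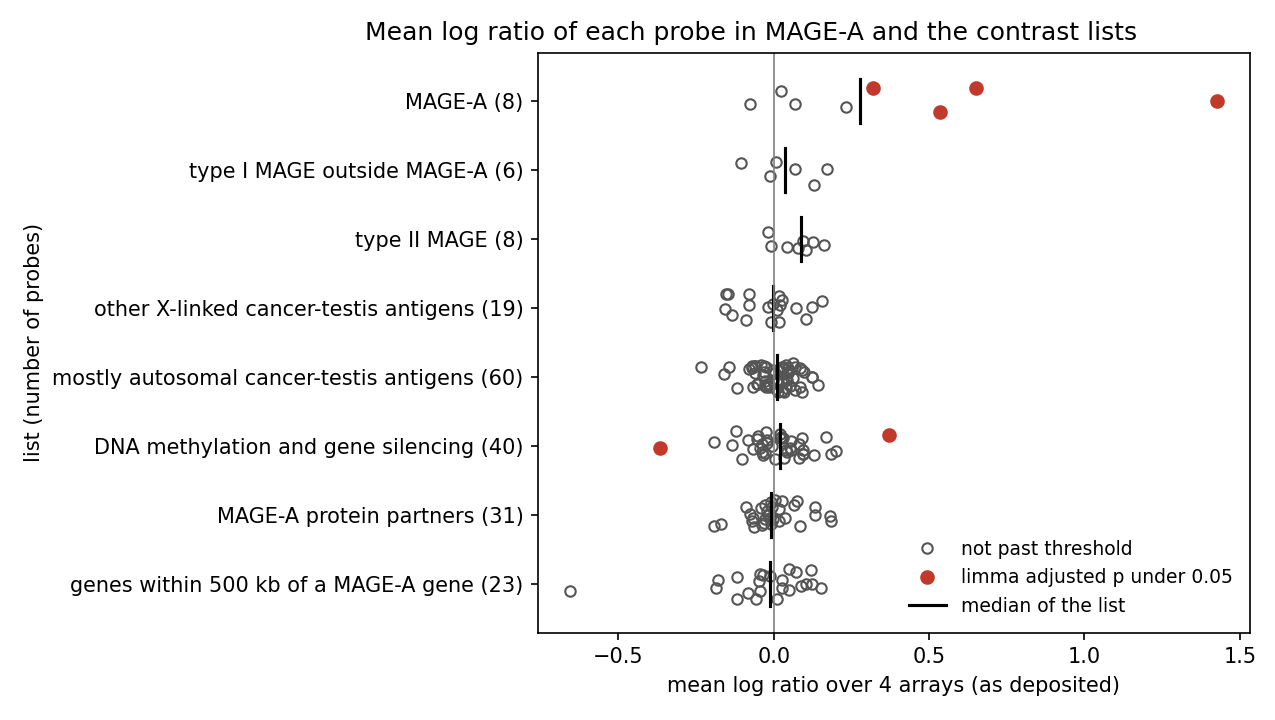
Mean log ratio over 4 arrays (horizontal axis, as deposited) of each probe of the MAGE-A family and of 7 contrast lists (rows, number of probes in brackets); filled red points passed a limma adjusted p of 0.05, open points did not, and bars mark list medians. MAGE-A has 4 called probes up to 1.43 and a median of 0.28. The silencing list, which also holds transcription factors, has 2 called probes, TDG at 0.37 and ETS2 at -0.36.

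The 5 genes whose probe lay nearest to MAGEA6, by Euclidean distance over the 4 log ratios, were ERRFI1 (distance 0.363), THSD4 (0.553), DKK1 (0.596), ATP1B3 (0.608) and XBP1 (0.632). ERRFI1, which dampens signalling of the EGF receptor, had 1.23 and 1.60 on arrays 1 and 3, against 1.15 and 1.24 on arrays 2 and 4. DKK1, a secreted Wnt inhibitor, had 1.501 and 1.18 on arrays 1 and 3, against 1.38 and 1.45 on arrays 2 and 4, without the drop on arrays 2 and 4 seen in MAGEA6. The measure rests on 4 arrays and mostly on the size of the log ratio.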

How the data were processed

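Log ratios of 26629 cDNA probes on 4 two-colour arrays were used as deposited. The authors used ArrayMagic with variance-stabilizing normalization on the scanner files and limma for their tests, per the series' design text. The deposited log ratio is of unstated base and numerator. No source used here gives versions, spot filters or averaging. Without intensities or scanner files, other background corrections, a filter on dim spots and a depth could not be tried or given, and the number of arrays limits precision. Each array is a slide of its own.

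Probes were named through the platform annotation (20976 with 1 symbol, 848 with several, 4805 with none). All probes were fitted in limma 3.58.1 (R 4.3.3) with a shared and an orientation term, with 2 residual and 7.22 prior degrees of freedom. The moderated tests were two-sided, at an adjusted p of 0.05 (Benjamini-Hochberg over the 26629 probes), and the fit was tested on simulated data. ± is the SD over 4 arrays and holds the orientation difference too. The members and lists were chosen with earlier results of these data known. Named genes are all members, the 5 probes nearest to the leading one, and in each list the called probes or the 2 with the largest statistic. Others, such as CTCFL, PRAME, TRIM28, GABRA3 and CETN2, were named after their values were seen. Sequences were aligned with Biopython 1.88, and figures drawn with matplotlib 3.10.9 in Python 3.11.15. Alternatives were no dye term, centring, scaling, quantile normalization, other moderation, array weights, other thresholds and leaving out each array. The alternating component is the dye term itself, so for it the first alternative left out the shared term instead.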

Additional observations from a re-analysis of the deposited data

Results flagged for a closer look

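The MAGEA11 probe read 0.18 on array 1, apart from 0.018 to 0.045 on the other arrays (gap over range of 0.830, just past Dixon's critical value for 4 values), and its mean was 0.034 without array 1 against 0.070 with it. The IDS probe, of a gene near the MAGE-A region, read -2.76 on array 2 and between -0.049 and 0.10 on the others (gap over range of 0.948), and its mean was 0.048 without array 2 against -0.65 with it. Chance puts about 1 in 20 such sets of values past the critical value. Among all probes 4.11% were past it. The 22 probes examined were the members, the list probes called in either component and list probes with a shared mean of at least 0.5 in size. Other named probes were not examined. IDS was examined only because its array 2 value made its mean large, so nothing is read from its flag.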

How the results depend on the processing

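MAGEA6 and MAGEA12 kept their call in the shared component in 10 of 11 settings of the fit and MAGEA2B in 9, and all 3 were positive in 11 of 11. The family was chosen on these log ratios, so these counts are no support for the members. Of the 8 MAGE-A probes 4 were called in the shared component, 2 without the dye term, 0 without moderation (3 had an unadjusted p under 0.05 there), and 3 to 4 when each array was left out. In the alternating component the count of 1 was 0 in a fit without the shared term, without moderation and after quantile normalization. It was also 0 at an adjusted p of 0.01 and with a minimum size of 0.5, and 2 at 0.1. With each array left out it was 0 to 1, being 0 without array 2 or array 4. The median of the MAGE-A probes (0.28) was 1.685 and the MAGEA6 mean (1.43) was 8.92 on the scale of 1 median absolute deviation, and 0.21 to 0.34 and 1.395 to 1.461 without each array. The number of probes with 1 sign on all arrays left was 6 to 8.

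Over all probes the shared count of 550 was 231 without the dye term, 0 without moderation (2514 at an unadjusted p under 0.05), 248 at 0.01, 867 at 0.1, 131 with a minimum size of 0.5, and 271 (without array 2) to 884 (without array 3), with 286 without array 4. The alternating count of 1141 was 102 without the shared term, where the dye term was kept. It was 4, 24, 3154 and 25 under the other settings in the same order. With an array left out it was 113 (without array 2) to 1874 (without array 1), with 138 without array 4. The 2 called probes of the contrast lists were 0 without moderation, 1 at 0.01, 0 with a minimum size of 0.5, and 1 (without array 2) to 4 (without array 3). With no moderation 2 residual degrees of freedom remain and with an array left out 1 fewer. Other causes were not tested. Each log ratio is already a difference within 1 array, so the fit kept the pairing of the 2 channels. No further paired analysis was possible, because there is no second group of arrays to pair them with.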
